A study of Sus scrofa with 12 samples.

Results

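The genes described here are 8 genes of bile acid and oxysterol handling, of 13755 genes with a symbol on the array. They comprise the enzymes CYP39A1, CYP27A1 and CYP7B1, the uptake protein SLC10A2 and the intracellular carrier FABP6, the receptor NR1H4, its target NR0B2 and the hormone FGF19. They were chosen by gene symbol, and the list was drawn up around the measured levels of CYP39A1, whose difference between feed efficiency groups runs in opposite directions in the sexes. For each gene the probe set with the highest mean over all arrays was used, so this level too was selected on. Of the 8 genes, 6 had a probe set, with 10 probe sets between them, and 8 of these 10 probe sets passed the filter on dim signals. No probe set carries the symbol CYP7B1 or FGF19 in the annotation used here, and these genes were not analysed here.

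Bile acids are made from cholesterol in the liver and reach the duodenum with the bile, where they help to dissolve dietary fat. Farther down, in the ileum, they are taken back up by the enterocytes, and a nuclear receptor that senses them there switches on a hormone which lowers their synthesis in the liver. Oxysterols, oxidised forms of cholesterol, are intermediates of bile acid synthesis and also signals of their own, and cytochrome P450 enzymes make and remove them.

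The tissue was duodenal mucosa of pigs (Sus scrofa) aged 140 days, with 1 Affymetrix Snowball array per pig. High feed efficiency (FE, how well feed becomes growth) was represented by 6 pigs and low FE by 6 pigs, and each group held 3 males and 3 females. The groups were set by a trait and not by a treatment, and the labels used here state no breed, diet or litter. In the text, high FE pigs 1 to 3 and low FE pigs 1 to 3 are males, and pigs 4 to 6 of both groups are females.

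All levels are log2 values as deposited, so a difference of 1 is a doubling of signal. Across the whole array, none of 33405 probe sets reached an adjusted p under 0.05 between high and low FE (limma, Benjamini-Hochberg), and 2000 had an unadjusted p under 0.05. Array medians lay between 3.83 and 3.91. All 12 measured enterocyte markers and all 8 measured duodenum markers lay above the array's background median on all 12 arrays. So did all 11 measured smooth muscle, 10 macrophage and 8 Brunner gland markers, 9 of 11 pancreatic acinar and 8 of 15 hepatocyte markers. Passing this bar therefore does not identify the tissue. The share over all probe sets was not computed, but the 30th percentile of their means, 2.37, falls within the range of that median. That background median is taken over 69 probe sets that match no pig transcript. It ran from 2.16 to 2.53 on the 12 arrays, and the 95th percentile of the same probe sets ran from 7.27 to 7.71. The background probe sets grow brighter with the share of G and C bases in their probes, with means from 1.21 to 7.62, and the G and C content of the probes for the genes described here was not used here. Markers of other cells varied between pigs. The mean of 11 measured pancreatic acinar markers was 6.88 in low FE pig 6 and at most 3.98 in the other pigs. In bulk mucosa, fewer cells of a type and less RNA per cell cannot be told apart.

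CYP27A1, SLC10A2, FABP6, NR1H4 and NR0B2 lay above the background median on all 12 arrays. CYP39A1 did so on 7 of 12. The share of all probe sets above that median was not computed. Ranked by mean among all probe sets, CYP27A1 lay at percentile 78.63, NR1H4 at 75.86 and NR0B2 at 72.95. FABP6 lay at 55.51, SLC10A2 at 45.16 and CYP39A1 at 39.41. No measured gene of the 6 exceeded the 95th percentile of background on any array. The mean of CYP27A1 exceeded the means of 48 of the 69 background probe sets, and so did that of NR1H4. The corresponding counts were 45 for NR0B2, 42 for FABP6 and 39 each for CYP39A1 and SLC10A2. All 6 signals therefore lie within the range that background probe sets span, so that being above the median is no proof of a transcript. The spread between pigs was unequal. The SD over the 12 pigs was 1.27 for CYP39A1, larger than that of 99.1% of all tested probe sets, and 0.82 for SLC10A2, larger than that of 95.69%. FABP6 varied least, with an SD of 0.19 against a median SD of 0.30 over all tested probe sets.

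CYP39A1, an oxysterol hydroxylase of the endoplasmic reticulum best known from liver, was low in high FE males and in low FE females and high in the other groups. In high FE males its level was 2.06, 1.91 and 2.02, against 4.61, 3.71 and 4.35 in low FE males. In high FE females it was 3.98, 4.33 and 4.14, against 1.57, 1.09 and 2.62 in low FE females. No pig of one FE group overlapped with the other FE group of the same sex, and the order of the groups was opposite in males and females. All 3 high FE males lay below the background median of their own array, as did low FE pigs 4 and 5. Low FE pig 6, at 2.62, stood just above the 2.53 of its array. The other 6 pigs lay above the median of their own array. The mean of 15 measured markers of hepatocytes, the cells best known for this enzyme, was 3.72 ± 0.11 in high FE males and 3.63 ± 0.03 in low FE males, and 3.70 ± 0.17 in high FE females and 3.81 ± 0.07 in low FE females (SD, n = 3 each). Of the 15, 8 lay above the background median on all 12 arrays, and the means of single genes ran from 1.60 for FGB, a fibrinogen chain, to 11.47 for C9, a complement protein. The list mean thus mixes genes at background level with bright ones such as C9 and CPS1 (9.07), and does not measure hepatocyte content. Of the 9 tested hepatocyte markers, 5 were lower and 4 higher in high FE by sign (median −0.09), where 54.04% of all probe sets were lower. HP, the haptoglobin gene, was the 1 of 9 tested with an unadjusted p under 0.05 for FE, against 5.99% of all probe sets. Averaged over the sexes it differed by −0.41 ± 0.13 (SE, adjusted p = 0.753, limma), and 1 further HP probe set had the opposite sign. The part of hepatocyte markers in the CYP39A1 values was not tested.

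**Figure D1:**
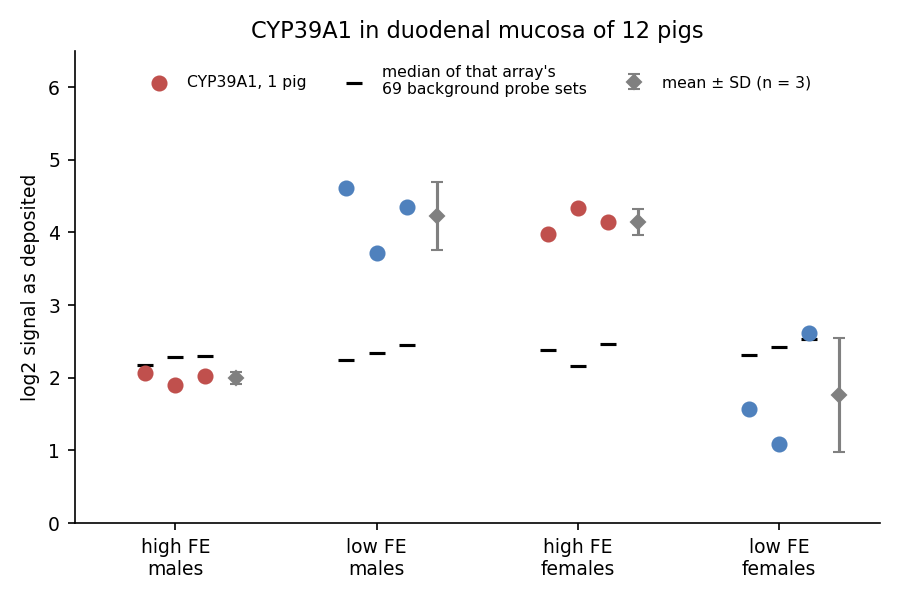
CYP39A1 log2 signal in each of the 12 pigs (circles), grouped by FE and sex, with the median of the background probe sets of the same array (dashes) and the group mean ± SD (diamonds, n = 3). High FE males average 2.00 and low FE males 4.23, while high FE females average 4.15 and low FE females 1.76.

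The mean was 2.00 ± 0.08 in high FE males and 4.23 ± 0.46 in low FE males (SD, n = 3 each), a difference of −2.23 ± 0.34 (SE). In females it was 4.15 ± 0.18 in high FE and 1.76 ± 0.78 in low FE (SD, n = 3 each), a difference of 2.39 ± 0.34 (SE). The FE difference in males minus that in females was −4.62 ± 0.48 (SE). These are the values for which the gene was singled out, so they are given as a description. Since 5 of the 6 pigs in high FE males and low FE females lie below their background medians, the differences are set against signal at background level. The interaction had an adjusted p under 0.05 for 1 probe set, which is 0.00299% of those tested and is CYP39A1 itself. The share at an unadjusted p under 0.05 was 3.27% of all probe sets, and of the 6 measured genes it was again CYP39A1. As the gene was chosen on this contrast, nothing is read from these shares. High FE below low FE in males and above it in females, with no overlap in either sex, was found for 41 probe sets, or 0.123%, and the mirror pattern for 62. When each pig was left out in turn, the sign could not turn, as the FE groups do not overlap in either sex. The difference of differences then lay between −5.05 and −4.28. Its adjusted p stayed under 0.05 only without low FE pig 2 or low FE pig 6, and reached 0.199 among the other 10 fits. The adjusted p (limma) was also above 0.05 with array weights (0.0939) and with the array background (0.0954) or the run of pig identifiers (0.0875) as a further term. Over the 11 alternatives other than leaving out single pigs, the adjusted p was above 0.05 in 6 and reached 0.854 (limma).

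Averaged over the sexes, the opposite differences cancel. CYP39A1 had 3.07 ± 1.19 in high FE and 2.99 ± 1.47 in low FE (SD, n = 6 each), which differ by 0.08 ± 0.70 (SE, adjusted p = 0.985, limma). Males had 3.11 ± 1.26 and females 2.96 ± 1.40 (SD, n = 6 each), which differ by 0.16 ± 0.70 (SE, adjusted p = 0.992, limma). The sign of both averages turned when single pigs were left out, with a range of −0.32 to 0.42 for FE and −0.25 to 0.45 for sex.

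The gene has a single probe set on the array, so no second probe set could be set beside it. Its neighbours on the chromosome were taken from the Sscrofa11.1 gene table as the 5 genes on either side. Of these 10 genes, 7 were tested, and their differences of differences lay between −0.25 for ENPP5 and 0.39 for RUNX2, each with an adjusted p of 0.998 in limma. The direct neighbours RCAN2 and SLC25A27 had 0.24 ± 0.43 and −0.03 ± 0.37 (SE). The genes whose levels over the 12 pigs were most like those of CYP39A1, of 12266 other genes, were MIR107 with a Pearson r of 0.841, SNX1 with 0.839 and LOC100519366 with 0.836. The most negative r, −0.843 for WISP2, named after its value was seen, was as large in size. These r are the extremes of 12266 over 12 pigs that fall into 2 clusters in CYP39A1, and they were not tested. The differences of differences of MIR107, SNX1 and LOC100519366 were smaller, at −2.06, −0.54 and −0.71. The MIR107 mean of 2.37 lies among the background medians. SNX1, which has 4 probe sets here, encodes a sorting nexin of endosomes.

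CYP27A1 is the mitochondrial enzyme that oxidises the sterol side chain, a step of bile acid synthesis that also makes an oxysterol. Its level was 5.01, 6.06, 5.76, 6.19, 5.49 and 6.85 in high FE pigs 1 to 6, against 6.51, 6.16, 6.06, 6.21, 5.38 and 6.30 in low FE pigs 1 to 6. The groups overlapped, and the high FE pigs held both the lowest and the highest value. The mean was 5.89 ± 0.63 in high FE and 6.10 ± 0.38 in low FE (SD, n = 6 each), a difference of −0.21 ± 0.28 (SE, adjusted p = 0.849, limma). Without high FE pig 1, the lowest, the difference was −0.03. Within males it was −0.63 ± 0.38 (SE) and within females 0.21 ± 0.38 (SE), and the difference between the sexes, −0.84 ± 0.53 (SE), did not pass (adjusted p = 0.998, limma). A second, dimmer CYP27A1 probe set differed by −0.06 ± 0.15 (SE) between FE groups. Over the 12 pigs the pair of probe sets had a Pearson r of 0.747 (permutation p = 0.00522, adjusted over 10 relations 0.0522) and a Spearman rho of 0.629 (permutation p = 0.0324, adjusted 0.207).

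**Figure D2:**
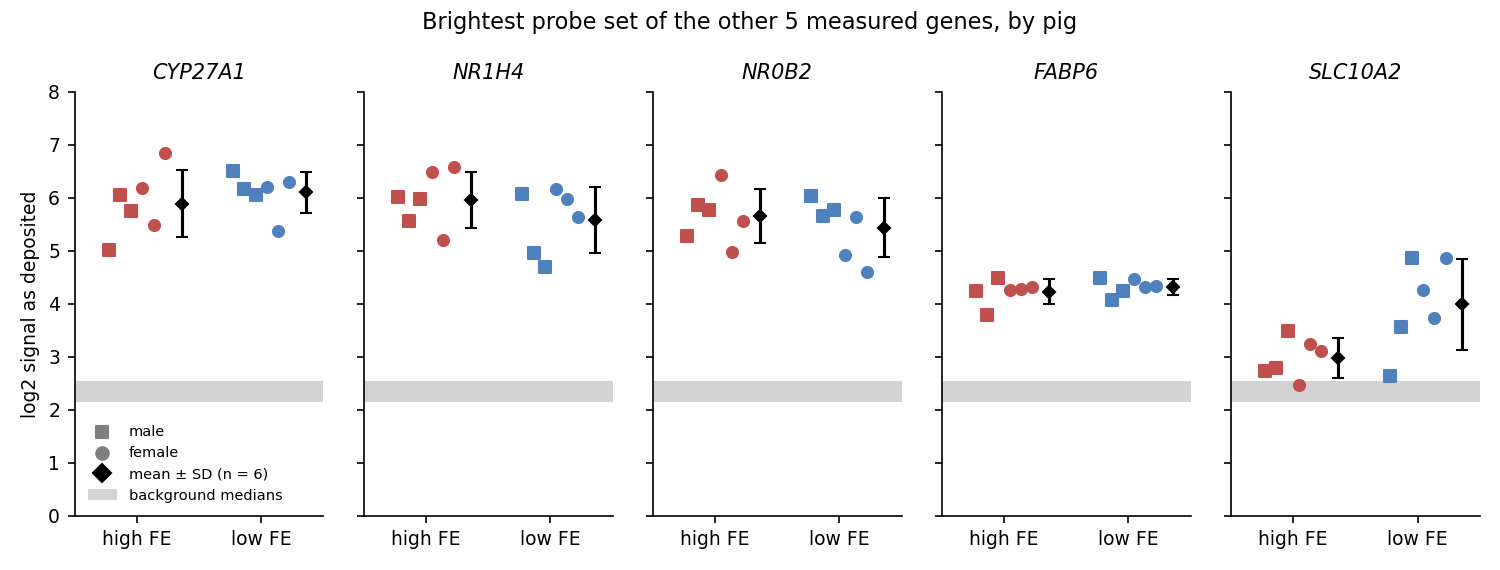
Log2 signal of the brightest probe set of CYP27A1, NR1H4, NR0B2, FABP6 and SLC10A2 in each pig (squares, males; circles, females), in high FE and low FE, with mean ± SD (n = 6) and the range of the array background medians in grey. The FE groups overlap in all 5 genes, and SLC10A2 has the widest gap between the means, 2.97 in high FE and 3.99 in low FE. Heights are not comparable between genes.

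SLC10A2, the sodium-dependent transporter that takes bile acids up across the apical membrane of ileal enterocytes, was the one measured gene of the 6 with an unadjusted p under 0.05 for FE. That share of 1 in 6 stands beside 5.99% of all probe sets. At an adjusted p under 0.05 it was 0 of 6, against 0% of all probe sets. Its level was 2.73, 2.79, 3.49, 2.47, 3.25 and 3.11 in high FE pigs 1 to 6, against 2.64, 3.57, 4.86, 4.26, 3.73 and 4.87 in low FE pigs 1 to 6. Low FE pigs 2 to 6 lay above every high FE pig, and low FE pig 1 lay among the lowest high FE pigs. The mean was 2.97 ± 0.38 in high FE and 3.99 ± 0.86 in low FE (SD, n = 6 each). The difference of −1.02 ± 0.35 (SE, adjusted p = 0.753, limma) did not pass after adjustment. It was −0.69 ± 0.49 (SE) within males and −1.35 ± 0.49 (SE) within females, and the difference between the sexes was 0.66 ± 0.70 (SE, adjusted p = 0.998, limma).

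The lower signal in high FE rests on 1 of the 4 probe sets annotated to SLC10A2. The second probe set had 2.73 ± 0.21 in high FE and 2.68 ± 0.25 in low FE (SD, n = 6 each), a difference of 0.06 ± 0.15 (SE, adjusted p = 0.93, limma). The other pair of probe sets had means of 2.11 and 1.78 over all pigs, below the filter level of 2.37, and exceeded the background median on 1 and 0 arrays. Over the 12 pigs, the Pearson r of the brightest probe set with these was 0.213, 0.271 and −0.336. The corresponding permutation p, adjusted over 10 relations, were 0.722, 0.722 and 0.706, and Spearman's rho was 0.196, 0.196 and −0.566 with adjusted p of 0.891, 0.891 and 0.207. When the 4 probe sets were averaged in place of taking the brightest, the FE difference was −0.22.

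**Figure D3:**
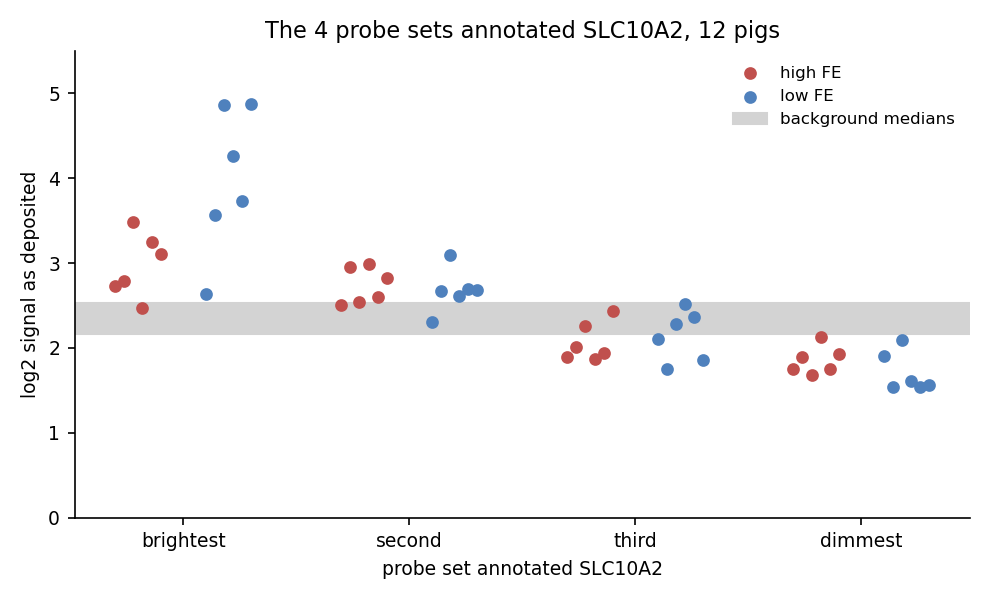
Log2 signal of the 4 probe sets annotated SLC10A2, in 6 high FE pigs (red, left of each pair) and 6 low FE pigs (blue), ordered by their mean, with the range of array background medians in grey. The low FE pigs stand higher in the brightest probe set, and the last pair, with means of 2.11 and 1.78, lie in or below the background range.

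The SLC10A2 signal moved with markers of smooth muscle, a cell type outside the epithelium. Over the 12 pigs its Pearson r with the mean of 11 measured smooth muscle markers was 0.908 (permutation p = 4e-05, adjusted over 45 relations 0.0018), and Spearman's rho was 0.923 (permutation p = 9e-05, adjusted 0.00405). Without low FE pigs 3 and 6, the farthest from the median marker level, r was 0.810. Within the groups it was 0.757 in high FE and 0.877 in low FE pigs, and 0.906 in males and 0.950 in females. The marker mean ran from 7.34 to 7.72 in high FE and from 7.38 to 8.22 in low FE pigs. Of the 11 measured markers, 10 were lower by sign in high FE. The median of the 11 differences was −0.36, and 5 had an unadjusted p under 0.05, all lower, where 5.99% of all probe sets had such a p and 54.04% were lower by sign. Among the 5 were CASQ2, a calcium store protein, with −0.72 ± 0.20 (SE) and HSPB6, a small heat shock protein, with −0.68 ± 0.19 (SE), both named after their values were seen. The marker list was chosen with earlier results of these data known, so nothing is read from the count. Both genes also enter the marker mean. None of the 11 passed after adjustment (adjusted p = 0.753 or more, limma). With the smooth muscle mean as a further term in the model, the FE difference in SLC10A2 was −0.26 (adjusted p = 0.984, limma). That mean itself was 7.61 ± 0.14 in high FE and 7.92 ± 0.30 in low FE (SD, n = 6 each), so the term overlaps with FE. The part of smooth muscle in the SLC10A2 difference was not tested. In order of brightness, the other 3 probe sets had an r of 0.238, 0.081 and −0.432 with the smooth muscle mean, none with an adjusted permutation p under 0.05. SLC10A2 also had an r of 0.595 with the pancreatic acinar mean (permutation p = 0.00261, adjusted 0.0294) but a rho of 0.650 (permutation p = 0.0266, adjusted 0.232), and 0.555 without low FE pigs 4 and 6. The r was 0.094 within high FE, 0.566 within low FE, 0.507 within males and 0.767 within females. The part of pancreatic markers in the SLC10A2 result was not tested.

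FABP6 carries bile acids within ileal enterocytes. It had 4.25, 3.79, 4.49, 4.27, 4.27 and 4.32 in high FE pigs 1 to 6, against 4.49, 4.07, 4.24, 4.47, 4.31 and 4.34 in low FE pigs 1 to 6. The groups overlapped throughout, and high FE pig 2 was the lowest. The mean was 4.23 ± 0.23 in high FE and 4.32 ± 0.16 in low FE (SD, n = 6 each), and the difference of −0.09 ± 0.13 (SE) did not pass (adjusted p = 0.865, limma). It was −0.09 ± 0.19 (SE) in each sex. The females lay within 4.27 and 4.47, while the males ranged from 3.79 to 4.49.

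NR1H4, known as FXR, is the nuclear receptor for bile acids. It had 6.01, 5.56, 5.98, 6.48, 5.20 and 6.58 in high FE pigs 1 to 6, against 6.08, 4.95, 4.70, 6.16, 5.99 and 5.64 in low FE pigs 1 to 6. Low FE pigs 2 and 3 were the lowest and high FE pigs 4 and 6 the highest, with overlap between the groups. The mean was 5.97 ± 0.53 in high FE and 5.59 ± 0.62 in low FE (SD, n = 6 each), a difference of 0.38 ± 0.28 (SE, adjusted p = 0.764, limma). Males had 5.55 ± 0.59 and females 6.01 ± 0.52 (SD, n = 6 each), a difference of −0.46 ± 0.28 (SE, adjusted p = 0.975, limma).

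The NR1H4 signal moved with the markers of enterocytes, the absorptive cells. Its Pearson r with the mean of 12 measured enterocyte markers was 0.876 (permutation p = 0.00022, adjusted over 45 relations 0.00495), and Spearman's rho was 0.846 (permutation p = 0.00111, adjusted 0.025). Without low FE pigs 3 and 6, r was 0.860, and it was 0.934 within high FE, 0.862 within low FE, 0.905 within males and 0.892 within females. NR1H4 ran the opposite way to the mean of 8 measured Brunner gland and gastric-type markers, secretory cells of the proximal duodenum, with an r of −0.856 (permutation p = 0.00035, adjusted 0.00525) and a rho of −0.748 (permutation p = 0.00741, adjusted 0.111). That r was −0.703 without low FE pigs 2 and 3, −0.690 within high FE, −0.933 within low FE, −0.908 within males and −0.836 within females. The enterocyte mean was 9.58 ± 0.48 in high FE and 9.39 ± 0.70 in low FE (SD, n = 6 each), and the Brunner gland mean was 7.42 ± 1.12 in high FE and 8.42 ± 1.42 in low FE (SD, n = 6 each). Of the enterocyte markers, 9 of 12 were higher in high FE by sign (median 0.15). Of the Brunner gland markers, 8 of 8 were lower (median −0.66), where 54.04% of all probe sets were lower. In both lists 0 had an unadjusted p under 0.05 (limma), against 5.99% of all probe sets. With the enterocyte mean as a further term, the FE difference in NR1H4 was 0.23, and with the smooth muscle mean it was −0.07. The part of these cell types in the NR1H4 difference was not tested.

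**Figure D4:**
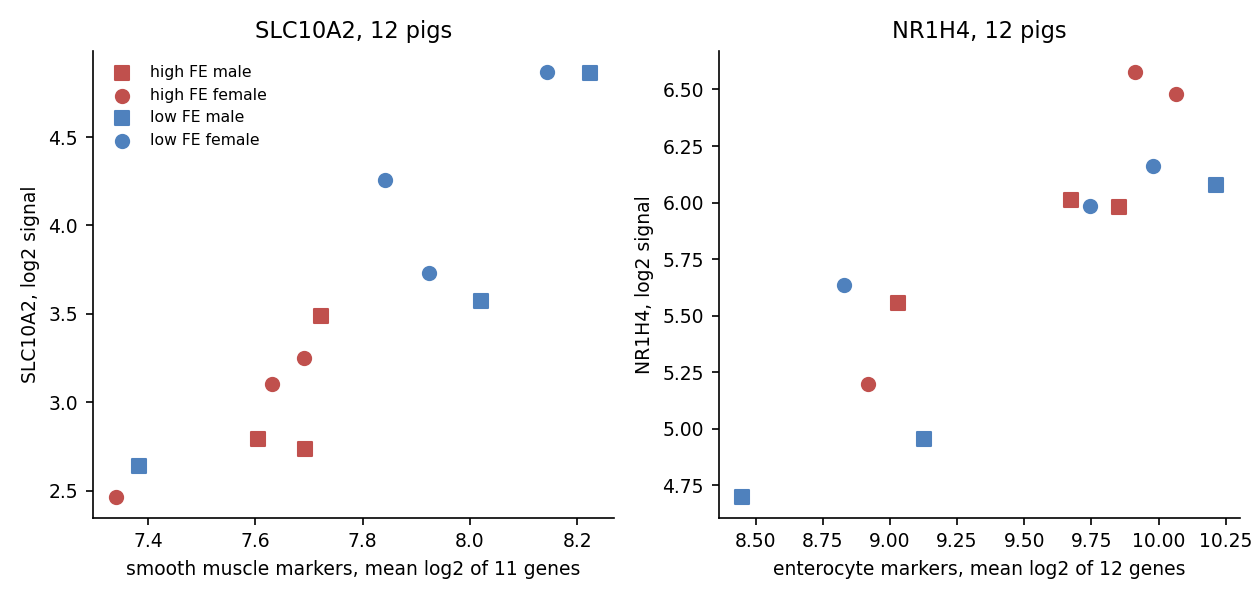
Left, SLC10A2 log2 signal against the mean log2 level of 11 smooth muscle markers; right, NR1H4 log2 signal against the mean of 12 enterocyte markers, each point 1 of the 12 pigs (red, high FE; blue, low FE; squares, males; circles, females). The points rise together in both plots, with a Pearson r of 0.908 on the left and 0.876 on the right. Axes do not start at 0.

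NR0B2, known as SHP, is a repressor that NR1H4 switches on. It had 5.29, 5.87, 5.78, 6.44, 4.98 and 5.57 in high FE pigs 1 to 6, against 6.03, 5.67, 5.78, 4.92, 5.63 and 4.59 in low FE pigs 1 to 6. The groups overlapped, with the highest value in high FE pig 4 and the lowest in low FE pig 6. The mean was 5.65 ± 0.50 in high FE and 5.44 ± 0.56 in low FE (SD, n = 6 each), a difference of 0.22 ± 0.27 (SE, adjusted p = 0.837, limma), and without high FE pig 4 it was −0.00013. With the smooth muscle mean as a term it was −0.15, and the part of smooth muscle was not tested. The FE difference was −0.18 ± 0.36 (SE) in males and 0.61 ± 0.36 (SE) in females, and the difference between the sexes of −0.79 ± 0.51 (SE) did not pass (adjusted p = 0.998, limma). No relation with the level of NR1H4 was detectable over the 12 pigs, with a Pearson r of 0.180 (permutation p = 0.573, adjusted 0.806) and a Spearman rho of 0.056 (permutation p = 0.869, adjusted 0.931).

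Between males and females, 0 of the 6 measured genes passed, against 0.021% of all probe sets. At an unadjusted p under 0.05 it was 0 of 6 as well, against 4.54% of all probe sets. The largest sex differences in size were the −0.46 of NR1H4 and the 0.38 ± 0.27 (SE) of NR0B2, and they had opposite signs.

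Over the 10 pairs among CYP27A1, FABP6, SLC10A2, NR1H4 and NR0B2, 0 had a Pearson permutation p under 0.05 across the 12 pigs. The strongest pair was SLC10A2 and NR0B2, with an r of −0.570 (permutation p = 0.0533, adjusted 0.233) and a rho of −0.594 (permutation p = 0.0468, adjusted 0.232). Within high FE pigs this r was −0.509, within low FE −0.646, within males 0.038 and within females −0.845 (exact permutation p = 0.0361). Within groups of 6 pigs, 3 other relations had an exact permutation p under 0.05. These were CYP27A1 with NR0B2 in males (r = 0.911, exact permutation p = 0.025), SLC10A2 with NR1H4 in males (r = −0.809, exact permutation p = 0.0181) and FABP6 with NR1H4 in low FE pigs (r = 0.824, exact permutation p = 0.0444). After adjustment over the 10 pairs, 0 passed within any of the 4 groups. CYP39A1 was related to the others only within its clusters of 6 pigs, where 0 of 10 relations passed after adjustment (smallest adjusted p = 0.458, exact permutation test). FABP6 had the strongest, an r of 0.849 over high FE females and low FE males (exact permutation p = 0.0458), with a rho of 0.60 (exact permutation p = 0.242).

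The wider pathway was read from 5 gene lists, which hold 64 tested genes between them, the 6 measured genes included. For FE, 0 of 64 passed after adjustment. At an unadjusted p under 0.05, 3 genes were lower in high FE and 0 higher, against 5.99% of all probe sets in both directions. By sign 38 of 64 were lower in high FE. Their median difference was −0.06, against 54.04% lower and a median of −0.02 over all tested probe sets. For the difference of FE differences between the sexes, 4 of 64 had an unadjusted p under 0.05, CYP39A1 included, against 3.27% of all probe sets.

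In bile acid synthesis, 12 of 20 listed genes were tested, and by sign 8 were lower and 4 higher in high FE. The median was −0.08, with 0 at an unadjusted p under 0.05. CYP7A1, the rate-limiting enzyme of the pathway in liver, had 2.61 ± 0.22 in high FE and 2.84 ± 0.30 in low FE (SD, n = 6 each), levels close to the background medians, and differed by −0.23 ± 0.16 (SE). ACOT8, a peroxisomal thioesterase, had 5.93 ± 0.50 in high FE and 6.24 ± 0.24 in low FE (SD, n = 6 each) and differed by −0.31 ± 0.22 (SE). SCP2, a sterol carrier of peroxisomes, differed by 0.32 ± 0.26 (SE) between males and females. None of the 3 genes passed.

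In bile acid transport, 11 of 17 listed genes were tested. By sign 10 of the 11 were lower in high FE, against 54.04% of all probe sets, and the median was −0.10. Some of these differences were small, such as −0.01 for ABCC4 and −0.04 for FABP1. For ABCC4, ABCG2, FABP1 and SLC10A2, at least 1 further tested probe set had the opposite sign. The 2 of 11 with an unadjusted p under 0.05, against 5.99% of all probe sets, were SLC10A2 and SLCO2B1, an uptake transporter for organic anions. SLCO2B1 had 6.64 ± 0.16 in high FE and 6.92 ± 0.22 in low FE (SD, n = 6 each), a difference of −0.28 ± 0.13 (SE, adjusted p = 0.753, limma). SLC10A1, the liver bile acid importer, lay among the background medians, at 2.24 ± 0.21 in males and 2.53 ± 0.17 in females (SD, n = 6 each), with a difference of −0.30 ± 0.13 (SE, adjusted p = 0.975, limma).

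Among receptors and feedback genes, 15 of 21 were tested, with 10 higher and 5 lower in high FE by sign, a median of 0.04 and 0 at an unadjusted p under 0.05. NR1I2, known as PXR and a receptor for drugs and secondary bile acids, had 9.04 ± 0.19 in high FE and 8.71 ± 0.50 in low FE (SD, n = 6 each), a difference of 0.33 ± 0.21 (SE). DIO2, which activates thyroid hormone downstream of a bile acid receptor in brown fat, had 3.63 ± 0.24 in high FE and 3.33 ± 0.36 in low FE (SD, n = 6 each). NR1I3, known as CAR, was at 5.79 ± 0.63 in males and 6.40 ± 0.54 in females (SD, n = 6 each), a difference of −0.61 ± 0.30 (SE, adjusted p = 0.975, limma). None of these genes passed in either comparison.

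Among oxysterol receptors and their targets, 19 of 23 were tested, with 11 higher and 8 lower in high FE by sign, a median of 0.03 and 0 at an unadjusted p under 0.05. ABCA1, the cholesterol exporter that oxysterol receptors switch on, had 6.23 ± 0.39 in high FE and 5.89 ± 0.31 in low FE (SD, n = 6 each), a difference of 0.34 ± 0.19 (SE, adjusted p = 0.753, limma). SULT2B1, which sulfates oxysterols, had 3.57 ± 0.41 in high FE and 3.96 ± 0.35 in low FE (SD, n = 6 each), a difference of −0.38 ± 0.21 (SE, adjusted p = 0.753, limma). OSBPL2, an oxysterol-binding protein, differed by 0.26 ± 0.13 (SE) between males and females (adjusted p = 0.975, limma). For the difference of FE differences between the sexes, 2 of the 19 genes had an unadjusted p under 0.05, against 3.27% of all probe sets, and both were named after their values were seen. SREBF1, the lipogenic transcription factor, had 6.85 ± 0.44 in high FE males and 7.21 ± 0.30 in low FE males, and 7.05 ± 0.30 in high FE females and 6.28 ± 0.15 in low FE females (SD, n = 3 each). ABCG1, a cholesterol exporter, had 5.13 ± 0.27 in high FE males and 5.52 ± 0.13 in low FE males, and 5.26 ± 0.32 in high FE females and 4.84 ± 0.27 in low FE females (SD, n = 3 each). The differences of differences were −1.13 ± 0.36 (SE) for SREBF1 and −0.81 ± 0.31 (SE) for ABCG1, with an adjusted p of 0.998 each in limma. Averaged over the sexes, the FE difference was 0.20 ± 0.23 for SREBF1 and 0.02 ± 0.19 for ABCG1 (SE). For this averaged difference, both genes have 1 further probe set of the opposite sign. The difference of differences was not compared between their probe sets.

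In bile acid detoxification, 7 of 12 listed genes were tested and all 7 were lower by sign in high FE (median −0.31), against 54.04% of all probe sets. All 7 were also lower by sign in males than in females (median −0.22), against 49.36% of all probe sets. The related genes CYP3A29, CYP3A39 and CYP3A46 are among the 7. The 1 of 7 with an unadjusted p under 0.05 for FE, against 5.99% of all probe sets, was CYP3A39, of a cytochrome P450 family that hydroxylates bile acids and drugs. It had 6.27 ± 0.67 in high FE and 6.97 ± 0.34 in low FE (SD, n = 6 each), a difference of −0.71 ± 0.26 (SE, adjusted p = 0.753, limma). In males it had 5.75 ± 0.15 in high FE and 7.06 ± 0.37 in low FE, and in females 6.78 ± 0.55 in high FE and 6.89 ± 0.36 in low FE (SD, n = 3 each). The difference of differences was −1.20 ± 0.41 (SE, adjusted p = 0.998, limma). Between males and females CYP3A39 differed by −0.43 ± 0.26 (SE). Members of this family are close in sequence, so a probe set may catch more than 1 of them. ABCC1, an exporter of conjugates, had 7.18 ± 0.52 in high FE and 7.64 ± 0.26 in low FE (SD, n = 6 each), a difference of −0.47 ± 0.23 (SE, adjusted p = 0.753, limma).

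**Figure D5:**
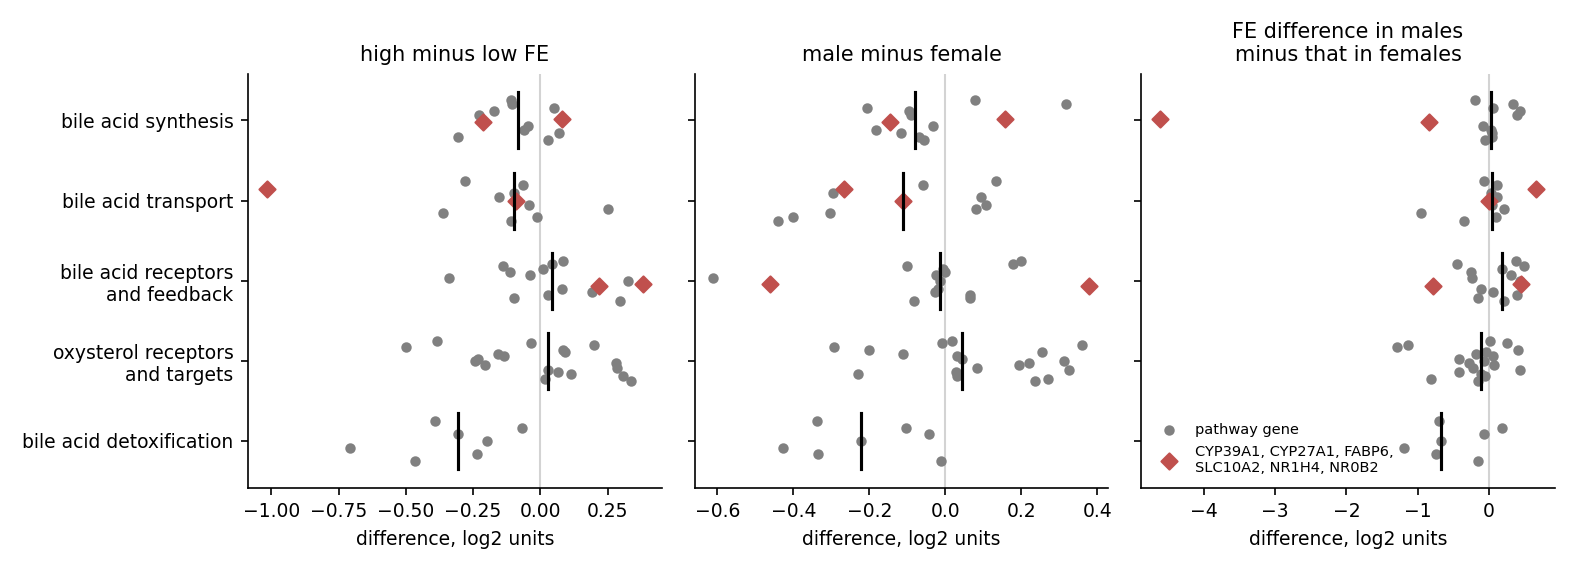
Differences on the log2 scale for the tested genes of 5 lists, with the 6 measured genes described here as red diamonds, other genes as grey points and the median of each list as a black bar. Panels show high minus low FE, male minus female, and the FE difference in males minus that in females, where CYP39A1 stands at −4.62. The x axes differ between panels.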

How the data were processed

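Total RNA of duodenal mucosa from 12 pigs was reverse-transcribed, biotin-labelled and hybridised to 1 array per pig, per the labels' protocols. GCOS 1.1.1 is named per the submitters' processing notes. The sources used here do not give the background correction, normalization or summarization. Deposited values were taken as log2, a scale read from their range, and were left unchanged. Groups and sex came from the labels. The labels do not say whether pigs shared a litter or pen.

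Symbols came from the platform annotation, which can be old and names no build, so no coordinates are given. Of 47722 probe sets other than controls, 26426 had 1 symbol and 21296 had none. Probe sets with a mean above the 30th percentile (2.37) were kept, 33405 in all, and fitted in R 4.3.3 using lmFit and eBayes of limma 3.58.1. Calls were made at a Benjamini-Hochberg adjusted p of 0.05. FE and sex were terms of a first model, and a second had a mean for each combination. The fits were tested on simulated data. Relations over pigs used permutation tests with 100000 resamples (all assignments for 6 pigs), adjusted over 45 relations (10 pairs and 35 with marker lists) or over 10 for probe sets of 1 gene.

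The members and lists were chosen with earlier results of these data known. From each list the text names genes past the threshold, otherwise the 2 with the lowest p for FE and the 1 for sex, with exceptions said to be so. The 3 genes most like CYP39A1 were named by Pearson r. The same was foreseen for genes above the 95th percentile of background on all arrays, and no member met that. Marker genes were summarised as the mean log2 level of the measured genes of each list. Alternatives changed the filter, normalization, variance model, array weights, model terms, probe sets per gene and set of pigs. The marker means as terms, leaving out the 3 arrays with the lowest first principal component, and the relations with marker lists and between probe sets were chosen after seeing the data. The number of arrays limits the precision.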

Additional observations from a re-analysis of the deposited data

Results flagged for a closer look

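The FE difference of CYP39A1 in males minus that in females was −4.62, and every male pair ran the opposite way to every female pair. This is the value by which the gene was chosen.

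Among 52 groups examined for a pig that stands apart from the rest of its group, 4 had one, where chance gives about 1 in 20. The groups share pigs and are not independent, so the count cannot be judged against that rate. FABP6 was 3.79 in high FE pig 2, below the other high FE pigs. The pancreatic acinar marker mean was 6.88 in low FE pig 6, apart from the other low FE pigs and from the other females. The smooth muscle marker mean was 7.34 in high FE pig 4, below the other high FE pigs.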

How the results depend on the processing

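No paired analysis was possible because the pigs carry no shared replicate numbers, only identifiers. The difference of FE differences in CYP39A1 kept its sign under all alternatives run, and its adjusted p rose above 0.05 with array weights (−4.45), with the array background (−4.62), the run of pig identifiers (up to 310, or above; −4.62), the smooth muscle mean (−4.64) or the enterocyte mean (−4.59) as a term, and without the 3 arrays whose first principal component is lowest, those of high FE pigs 1, 2 and 5 (−4.50). The highest adjusted p among these settings was 0.854 (limma). Without single pigs the difference of FE differences ranged from −5.05 to −4.28. The number of probe sets past the threshold for this contrast was 1, and 0 under these 6 settings and under the filter at the 50th percentile, with 0 to 1 when single pigs were left out. For FE the number was 0, with 0 to 1 when single pigs were left out (1 without low FE pig 4), and for sex it was 7 as reported and 3 with the run of identifiers as a term. All pigs with identifiers above 310 were females, so sex and the run are partly confounded.

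Signs turned for differences that did not pass. With the smooth muscle mean as a term the FE difference was −0.31 for CYP39A1, −0.0677 for NR1H4 and −0.15 for NR0B2. Without the 3 arrays it was 0.15 for CYP27A1, 0.036 for FABP6 and 0.11 for ACOT8. Adjusting for the array background gave a CYP27A1 sex difference of 0.0336. The difference of FE differences in FABP6, 0.00098 as reported, was −0.0499 after quantile normalization, −0.0524 after centring, −0.0248 with array weights, −0.0249 with the enterocyte mean and −0.00054 with the array background. Leaving out single pigs gave ranges of −0.32 to 0.42 (CYP39A1, FE), −0.25 to 0.45 (CYP39A1, sex), −0.32 to 0.0528 (CYP27A1, sex), −0.16 to 0.19 (FABP6, difference of FE differences), −0.00013 to 0.34 (NR0B2, FE) and −0.49 to 0.0047 (SLC10A2, sex). The causes were not tested.

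The filter at the 50th percentile left out CYP39A1 and SLC10A2, so it gave no value for them, and FE or sex alone gave none for the interaction. Against the background median in place of its 95th percentile, CYP39A1 was above on 7 arrays and the other 5 genes on 12, and against the brightest background probe set each was above on 0. After adjustment over the 10 pairs among the other 5 genes, 0 passed over all pigs, without the 2 farthest, or within FE groups or sexes. Signals near background limit CYP39A1, SLC10A2, CYP7A1 and SLC10A1.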
